A study of Mus musculus with 12 samples.

Results

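Interferon-stimulated genes are the genes that cells switch on when interferon reaches its receptors, and 36 of them were followed across 3 CD4+ T cell populations of the mouse thymus. The 36 are type I and type II interferon response genes, from sensors of viral nucleic acid to antiviral effectors. They were taken by symbol, by a rule that names them and uses no measured value, from the 55450 genes of the deposited table. All 36 passed the filter on low counts, which left 15361 genes to test. The mice were CD4-Cre x Foxp3-GFP throughout. Green fluorescence marks cells that express Foxp3, the factor that defines regulatory T cells (Tregs), and Cre recombinase is driven by the Cd4 gene's regulatory sequence. The labels name no other allele and no age. Eos+ Tregs were Foxp3+ cells that carried Ccr6 and Cxcr4 on their surface, Eos- Tregs were Foxp3+ cells with neither, and conventional T cells (Tconv) were Foxp3-. The names refer to Eos, the transcription factor encoded by Ikzf4, but the gate used Ccr6 and Cxcr4 in its place. Each population had 4 libraries, numbered 1 to 4, and each library was made from 1 ng of RNA.

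Type I interferons bind a receptor made of Ifnar1 and Ifnar2, and interferon gamma binds another made of Ifngr1 and Ifngr2. Both receptors work through Jak kinases and STAT proteins. Stat2 and Irf9 belong to the complex that binds the interferon-stimulated response element (ISRE), and interferon gamma acts through the gamma-activated site (GAS). In the thymus, medullary epithelial and dendritic cells make type I interferon without infection, and T cells gain interferon-stimulated transcripts late in their maturation there.

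Promoters of 5 genes are shown because these genes stand for the main expression patterns found below and carry the ISRE. Ifit1 and Isg15 were lower in Eos+ Tregs than in both other populations, Gbp3 was highest in Eos+ Tregs, Igtp was highest in Eos- Tregs, and Oas1a stood out in the libraries numbered 4. Each line gives the 140 bases just before the annotated start, 5′ to 3′ on the gene's strand, from RefSeq on GRCm38.p6, with matches to the ISRE core in capitals.
Ifit1: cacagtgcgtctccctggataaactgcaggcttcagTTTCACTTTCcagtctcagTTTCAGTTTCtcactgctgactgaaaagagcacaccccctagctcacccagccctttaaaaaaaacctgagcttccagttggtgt
Isg15: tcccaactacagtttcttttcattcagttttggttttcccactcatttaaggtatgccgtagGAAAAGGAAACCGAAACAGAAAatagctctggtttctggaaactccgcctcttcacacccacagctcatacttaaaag
Gbp3: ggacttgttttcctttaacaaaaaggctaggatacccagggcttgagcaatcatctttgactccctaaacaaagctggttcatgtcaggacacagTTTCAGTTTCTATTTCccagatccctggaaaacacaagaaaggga
Igtp: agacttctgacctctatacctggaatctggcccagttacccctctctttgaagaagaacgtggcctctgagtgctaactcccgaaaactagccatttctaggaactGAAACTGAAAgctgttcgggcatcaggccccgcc
Oas1a: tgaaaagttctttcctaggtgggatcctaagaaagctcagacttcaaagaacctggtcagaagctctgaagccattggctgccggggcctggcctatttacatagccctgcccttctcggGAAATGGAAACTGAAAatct
The stretches lie on chromosome 19, 34640749 to 34640888 (Ifit1, plus strand), chromosome 4, 156200819 to 156200958 (Isg15, minus strand), chromosome 3, 142559904 to 142560043 (Gbp3, plus strand), chromosome 11, 58199416 to 58199555 (Igtp, plus strand) and chromosome 5, 120907526 to 120907665 (Oas1a, minus strand). The core was searched as GAAANNGAAA on both strands. Matches in Isg15, Gbp3 and Oas1a overlap one another, so a longer run of capitals holds 2 or 3 of them. In Ifit1 they lie 104 to 95 and 85 to 76 bases before the start, and in Igtp 34 to 25 bases before it.

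RefSeq promoter windows of 250 bases before to 50 after the start were matched for 25 of the 36 genes, in 31 windows. Of the 25 genes, 16 (64.0%) held the ISRE core, against 3.99% of 27025 genes (3.44% of 32851 windows). The GAS motif TTCNNNGAA, which reads the same on both strands, was in 7 of the 25 (28.0%), against 9.55% of genes (8.3% of windows). In Bst2 a GAS match overlapped an ISRE match. Of the 16 genes with an ISRE core, 8 were lower and 1 was higher in Eos+ than in Eos- Tregs. Over all genes tested, 6.45% were lower and 9.82% higher. Of the 9 without it in the window (Ifi35, Ifi44, Ifit2, Irf7, Irf9, Isg20, Oasl1, Oasl2 and Xaf1), 7 were lower and 0 higher, by the edgeR test described below. These matches describe letters in a window and are not measured binding.

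**Figure D1:**
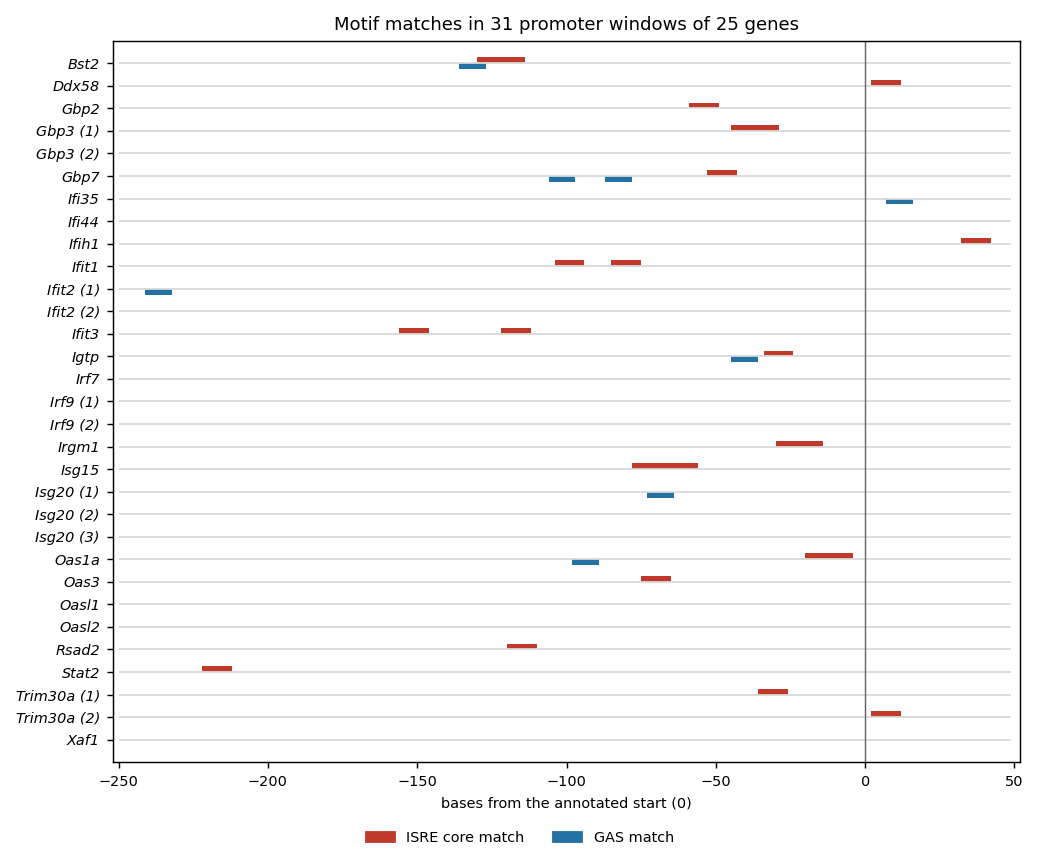
Positions of ISRE core matches (red) and GAS matches (blue) in 31 promoter windows of 25 interferon-stimulated genes, by distance in bases from the annotated start (vertical line at 0). Numbers in brackets tell windows of 1 gene apart. Of the 25 genes, 16 have a red mark and 7 a blue mark.

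The libraries held 23.9 to 37.9 M expected counts. Levels below are in CPM, counts scaled to a common library total, and values in a list are in the order of libraries 1 to 4. Nothing in the labels says that replicates came from separate animals, so what the p-values weigh is spread among these libraries, part of which may be technical. Cd3e stood at 801 to 1038 CPM and Cd4 at 532 to 1079 CPM in all 12 libraries. Ccr6 was 227 to 263 CPM in Eos+ Tregs, 10.4 to 19.7 in the Eos- libraries and 1.08 to 4.22 in Tconv. Cxcr4, the other gate marker, was 25.2 to 52.9 CPM in Eos+ Tregs and 22.7 to 42.3 in Eos- Tregs, which overlap. Eos- Tregs held Ikzf4 transcript, at 155 to 181 CPM, against 292 to 334 in Eos+ Tregs and 22.7 to 27.4 in Tconv. Foxp3 was 55 and 53.2 CPM in the Eos+ and Eos- Treg libraries numbered 1, against 486 to 862 CPM in the other Treg libraries and at most 3.42 in Tconv. Counts of the interferon-stimulated genes are therefore given with and without the libraries numbered 1.

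Most interferon-stimulated genes were lower in Eos+ than in Eos- Tregs. Against Eos- Tregs, 20 of the 36 were lower in Eos+ Tregs, led by Oas2 (3.49-fold), Zbp1 (2.17-fold), Mx2 (2.11-fold) and Ifit1 (2.01-fold). Only Gbp3 was higher there, by 1.88-fold, and 15 did not pass the threshold. In bulk libraries such as these, fewer cells of a type and less RNA per cell cannot be told apart. Called here means an adjusted p under 0.05 in edgeR's quasi-likelihood test with Benjamini-Hochberg adjustment over all genes tested. Of all genes tested, 6.45% were called lower and 9.82% higher in this comparison. The median log2 fold change was -0.58 over the 36 genes and 0.00 over all genes tested, and 34 of the 36 were below 0. Without the libraries numbered 1, 19 were lower. Without Eos+ Treg library 3, Gbp3 was no longer called (adjusted p = 0.0518), and without all the libraries numbered 3 the count of lower genes was 13.

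Against Tconv, most calls were higher in Eos- Tregs and lower in Eos+ Tregs. In Eos- Tregs 14 of the 36 were higher than in Tconv and 2 were lower, where 8.76% of all genes were called higher and 5.89% lower. In Eos+ Tregs 12 were lower than in Tconv and 4 were higher, where 13% of all genes were called lower and 17.3% higher. The median log2 fold change was 0.33 for Eos- Tregs and -0.18 for Eos+ Tregs, against -0.01 over all genes in both. The comparisons share their libraries and are not separate evidence. Without the libraries numbered 1, 13 were higher in Eos- Tregs, and 12 were lower and 2 higher in Eos+ Tregs. The count of 14 fell to 7 without Tconv library 1, Tconv library 2 or Eos- Treg library 4 and to 8 without Eos- Treg library 3. In the fit with the library number as a block, calls rose over all genes too. With it 2 of the 36 were higher and 29 lower in Eos+ than in Eos- Tregs, where 13.1% of all genes were called higher and 9.67% lower. In Eos+ Tregs against Tconv 7 were higher and 18 lower (19.8% and 16.5% of all genes), and in Eos- Tregs against Tconv 21 were higher and 4 lower (11.3% and 10.2% of all genes).

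Libraries of the same number can also be compared pair by pair. Between Eos+ and Eos- Tregs, 32 of the 36 genes were lower in Eos+ in all 4 pairs, against 19.6% of all genes, and 2, Gbp3 and Oas1a, were higher in all 4, against 23% of all genes. Between Eos+ Tregs and Tconv, 18 were lower in all 4 pairs (24.3% of all genes) and 7 higher (26.3% of all genes). Between Eos- Tregs and Tconv, 21 were higher in all 4 pairs (20.1% of all genes) and 4 were lower (21% of all genes): Gbp2, Gbp4, Oas2 and Oas3. By the order of the group means, Eos- Tregs were highest for 27 of the 36 genes, with Tconv next for 15 of those and Eos+ Tregs next for 12. Tconv were highest for 7 (Gbp2, Gbp4, Ifi44, Isg15, Mx2, Oas2 and Oas3) and Eos+ Tregs for 2 (Gbp3 and Oas1a). Neighbours in these orders often did not differ beyond their spread, as the tests by gene below show.

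**Figure D2:**
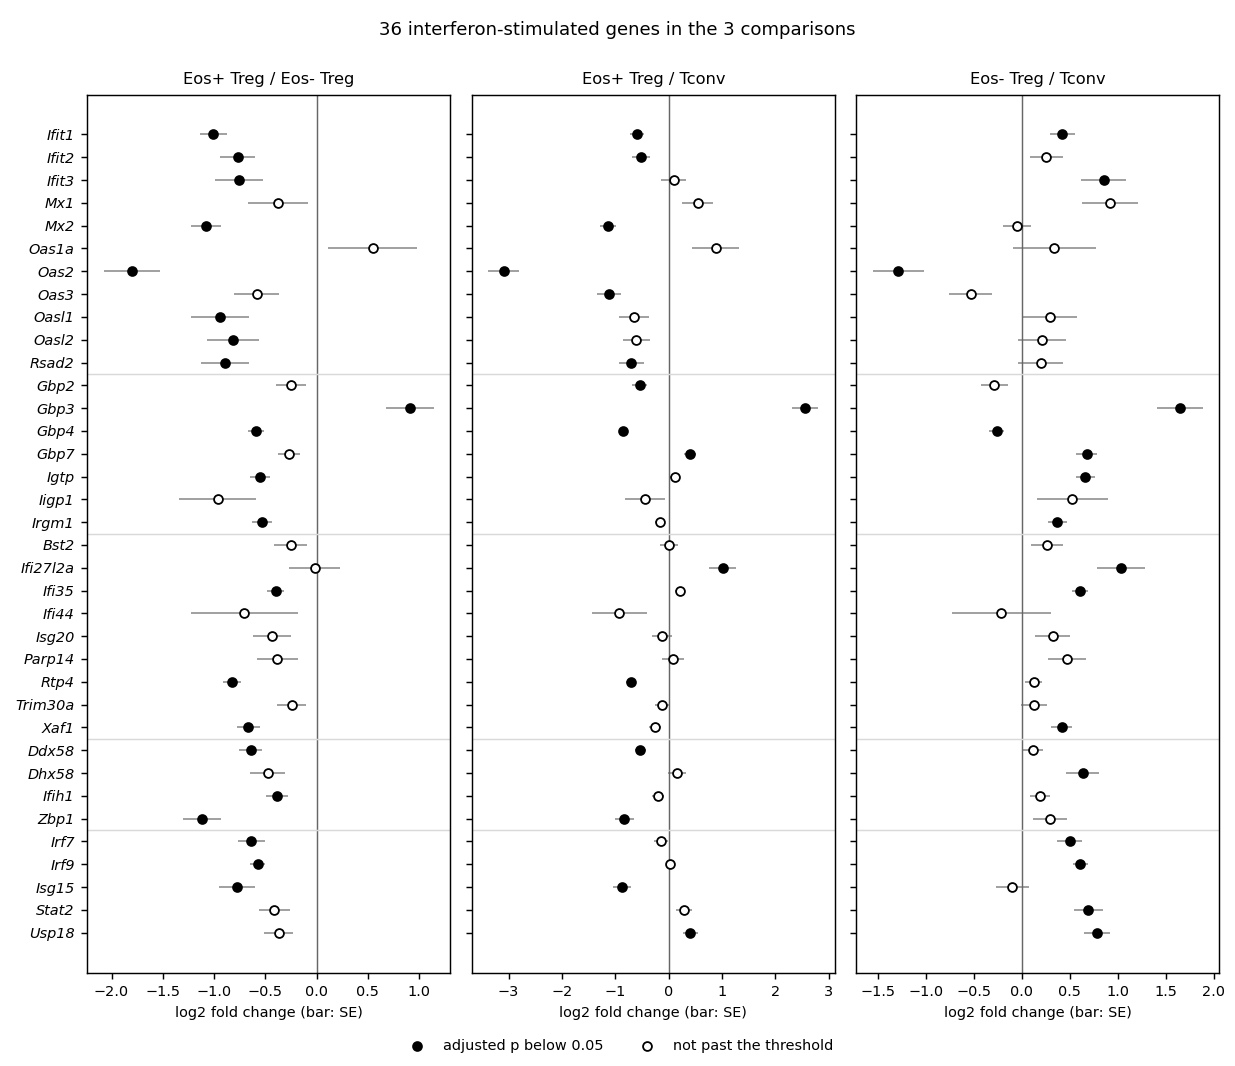
Log2 fold changes of the 36 interferon-stimulated genes (points) with their standard errors (bars) in the 3 comparisons, from the edgeR fit, grouped by role. Filled points passed an adjusted p of 0.05. In the left panel 34 of 36 points lie below 0.

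Among the sensors, Zbp1, Ddx58 and Ifih1 were lower in Eos+ than in Eos- Tregs, and 0 of the 4 were higher. The shares over all genes tested were 6.45% lower and 9.82% higher. Zbp1 binds Z-form nucleic acid and can start necroptosis. Its level was 111, 104, 161 and 174 CPM in the Eos+ libraries, 232, 282, 344 and 334 in the Eos- libraries and 204, 218, 272 and 280 in those of Tconv. Every Eos+ Treg library was below every other library, by a log2 of -1.12 ± 0.18 (SE, n = 4 per group) against Eos- Tregs (adjusted p = 0.00126) and -0.83 ± 0.18 against Tconv (adjusted p = 0.00396). Ddx58 encodes RIG-I, a sensor of viral RNA ends. It stood at 115, 119, 161 and 125 CPM in the Eos+ libraries, 175, 197, 225 and 214 in the Eos- libraries and 184, 181, 202 and 183 in those of Tconv. Again no Eos+ Treg library reached the lowest of the others, and the log2 differences were -0.64 ± 0.11 (adjusted p = 0.00175) and -0.53 ± 0.11 (adjusted p = 0.00278). Eos- Tregs and Tconv did not pass the threshold against each other for Zbp1 (log2 0.29, adjusted p = 0.333) or Ddx58 (0.11, adjusted p = 0.568).

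The other sensors are the relatives of RIG-I. Ifih1, which encodes the sensor MDA5 for long double-stranded RNA, measured 41.2, 45.4, 47.1 and 49.7 CPM in the Eos+ libraries, 52.9, 58.9, 62.6 and 65.6 in the Eos- libraries and 46.2, 52.1, 52.4 and 60 in those of Tconv. Eos+ and Eos- Tregs did not overlap, and Eos+ Tregs were lower by a small step (log2 -0.39 ± 0.11, adjusted p = 0.0237). That call was lost without Eos+ Treg library 1 or 2 or Eos- Treg library 2, 3 or 4 (adjusted p 0.0533 to 0.073). Dhx58, which encodes LGP2, a regulator of the other sensors, measured 53.1, 67.7, 79.1 and 96 CPM in the Eos+ libraries, 81.7, 107, 114 and 110 in the Eos- libraries and 58.8, 58, 76 and 72.6 in those of Tconv. Eos- Tregs lay above all Tconv libraries (log2 0.63 ± 0.17, adjusted p = 0.0247), and the Eos+ and Eos- ranges overlapped (log2 -0.48, adjusted p = 0.0765). The first call was lost without Tconv library 1 or 2 or Eos- Treg library 2, 3 or 4 (adjusted p 0.0626 to 0.0814). With the block, Dhx58 was lower in Eos+ than in Eos- Tregs (adjusted p = 0.00515), Ifih1 was lower in Eos+ Tregs than in Tconv (adjusted p = 0.0416), and Zbp1 was higher in Eos- Tregs than in Tconv (adjusted p = 0.0244).

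Of the 5 signalling and feedback genes, 4 were higher in Eos- Tregs than in Tconv (Irf7, Irf9, Stat2 and Usp18) and 3 were lower in Eos+ than in Eos- Tregs (Irf7, Irf9 and Isg15). The shares over all genes tested were 8.76% and 6.45%. Irf9 is the DNA-binding subunit of the ISRE-binding complex. Its level was 299, 297, 306 and 286 CPM in the Eos+ libraries, 400, 452, 482 and 435 in the Eos- libraries and 313, 270, 303 and 274 in those of Tconv. Every Eos- Treg library lay above the other 8 libraries, and Eos+ Tregs and Tconv overlapped. The log2 difference was -0.57 ± 0.08 between Eos+ and Eos- Tregs (adjusted p = 0.000288), 0.61 ± 0.08 between Eos- Tregs and Tconv (adjusted p = 0.000172) and 0.04 ± 0.08 between Eos+ Tregs and Tconv (adjusted p = 0.772). Exons of Irf9 overlap those of the expressed gene Rnf31, so reads there cannot be told apart. Stat2, its partner in the complex, measured 121, 173, 203 and 155 CPM in the Eos+ libraries, 199, 199, 256 and 213 in the Eos- libraries and 127, 126, 162 and 121 in those of Tconv. Eos- Tregs lay above Tconv (log2 0.69 ± 0.15, adjusted p = 0.00763) but overlapped Eos+ Tregs (log2 -0.41, adjusted p = 0.0814). The call against Tconv was lost without the libraries numbered 2 or 4.

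Irf7 amplifies interferon production once a first wave has been made. Its level was 220, 287, 264 and 293 CPM in the Eos+ libraries, 356, 369, 435 and 493 in the Eos- libraries and 289, 240, 309 and 331 in those of Tconv. Eos- Tregs were again above both other groups without overlap, with a log2 of -0.64 ± 0.13 for Eos+ against Eos- Tregs (adjusted p = 0.00505) and 0.50 ± 0.13 for Eos- Tregs against Tconv (adjusted p = 0.0216). The second call was lost without Tconv library 1 or 2 or Eos- Treg library 3 or 4 (adjusted p 0.0556 to 0.0751), and the first without the libraries numbered 3. Exons of Irf7 overlap Phrf1 on the other strand. Usp18 removes Isg15 from proteins and blocks signalling at Ifnar2. It stood at 166, 168, 184 and 220 CPM in the Eos+ libraries, 209, 210, 253 and 282 in the Eos- libraries and 129, 112, 153 and 161 in those of Tconv. Both Treg populations lay above Tconv, by 0.78 ± 0.14 for Eos- Tregs (adjusted p = 0.00218) and 0.41 ± 0.14 for Eos+ Tregs (adjusted p = 0.0387). The Eos+ call was lost without Tconv library 1 or 2, Eos+ Treg library 3 or 4 or Eos- Treg library 3 (adjusted p 0.0506 to 0.123). Usp18 held non-whole counts in all 12 libraries, a sign of reads shared with another gene, so its level is uncertain.

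Isg15 encodes the ubiquitin-like protein that is joined to other proteins during the response. It measured 23.9, 21.3, 30.5 and 33.5 CPM in the Eos+ libraries, 43.8, 43.3, 45 and 54.7 in the Eos- libraries and 43.3, 39.9, 54.4 and 62.5 in those of Tconv. It was low in all 4 Eos+ Treg libraries, by -0.78 ± 0.17 against Eos- Tregs (adjusted p = 0.00856) and -0.88 ± 0.17 against Tconv (adjusted p = 0.002), and Eos- Tregs and Tconv overlapped (log2 -0.10, adjusted p = 0.778). Isg15 lies on chromosome 4, 156199424 to 156200818, minus strand (mm10). With the block, Stat2 and Usp18 were also lower in Eos+ than in Eos- Tregs (adjusted p = 0.00618 and 0.00224), and Stat2 was higher in Eos+ Tregs than in Tconv (adjusted p = 0.034).

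The Ifit, Mx, Oas and Rsad2 genes encode effectors that act on viral RNA and virus particles. Of 11 genes, 8 were lower in Eos+ than in Eos- Tregs (Ifit1, Ifit2, Ifit3, Mx2, Oas2, Oasl1, Oasl2 and Rsad2) and 0 higher, with a median log2 of -0.81. The shares over all genes tested were 6.45% lower and 9.82% higher. Against Tconv, 6 were lower in Eos+ Tregs (Ifit1, Ifit2, Mx2, Oas2, Oas3 and Rsad2), where 13% of all genes were called lower. In Eos- Tregs against Tconv, Ifit1 and Ifit3 were higher and Oas2 was lower (8.76% and 5.89% of all genes). The Oas enzymes sense double-stranded RNA and make oligoadenylates that activate RNase L. Oas2 (chromosome 5, 120730333 to 120749853, minus strand, mm10) stood at 6.43, 7.09, 13.1 and 15.3 CPM in the Eos+ libraries, 29.6, 30.9, 46.5 and 39.3 in the Eos- libraries and 80.8, 72.8, 112 and 92.2 in those of Tconv. The 3 populations formed separate steps with no overlap. Eos+ Tregs were 3.49-fold below Eos- Tregs (log2 -1.80 ± 0.27, adjusted p = 0.000747) and 8.54-fold below Tconv (log2 -3.09 ± 0.28, adjusted p = 4.53e-06). Eos- Tregs were below Tconv by a log2 of -1.29 ± 0.27 (adjusted p = 0.00572).

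Oas3 and Oas1a, relatives of Oas2, lie beside it on chromosome 5. Oas3 (120753098 to 120777661) measured 35.6, 20.9, 43.5 and 29.3 CPM in the Eos+ libraries, 43.7, 43.3, 58.3 and 48.9 in the Eos- libraries and 56.5, 54.6, 78.8 and 91.7 in those of Tconv. Eos+ Tregs lay below Tconv without overlap (log2 -1.12 ± 0.22, adjusted p = 0.00195), and neither Eos+ against Eos- Tregs (log2 -0.59, adjusted p = 0.0946) nor Eos- Tregs against Tconv (log2 -0.54, adjusted p = 0.13) passed. Oas1a (120896256 to 120907521) measured 47.8, 48.5, 46.9 and 104 CPM in the Eos+ libraries, 28.2, 34.4, 29.6 and 77.2 in the Eos- libraries and 24.3, 22.4, 21.9 and 65.5 in those of Tconv. Its highest level in each population was in the library numbered 4, and the ranges of all 3 populations overlapped (adjusted p 0.152 to 0.683). With the block, which compares libraries of the same number, Oas1a was higher in Eos+ Tregs than in Eos- Tregs (log2 0.59, adjusted p = 0.00187) and Tconv (0.96, adjusted p = 3.42e-05), and higher in Eos- Tregs than in Tconv (0.37, adjusted p = 0.0215). Oas3 with the block was lower in Eos+ than in Eos- Tregs (adjusted p = 0.0175) and lower in Eos- Tregs than in Tconv (adjusted p = 0.0364).

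Ifit proteins bind foreign RNA and block its translation. Ifit1 (chromosome 19, 34640871 to 34650009, plus strand, mm10) measured 132, 165, 158 and 132 CPM in the Eos+ libraries, 263, 304, 327 and 287 in the Eos- libraries and 184, 195, 220 and 284 in those of Tconv. The Eos+ Treg libraries were the 4 lowest of the 12, at a log2 of -1.01 ± 0.13 against Eos- Tregs (adjusted p = 0.000302) and -0.59 ± 0.13 against Tconv (adjusted p = 0.0046). The difference from Tconv was -0.38 without the libraries numbered 4. Eos- Tregs overlapped Tconv and were higher by 0.42 ± 0.13 (adjusted p = 0.0492), a call lost when any 1 of 10 libraries was left out (all but Eos- Treg library 1 and Tconv library 4, adjusted p up to 0.14). Ifit1 and Ifit3 held non-whole counts in all 12 libraries and are uncertain for that reason. Mx2 encodes a dynamin-like GTPase that hinders the growth of some viruses. Its low levels were 7.43, 6.92, 8.4 and 7.74 CPM in the Eos+ libraries, 16.4, 12.7, 18.4 and 16.9 in the Eos- libraries and 16.9, 15.3, 18.1 and 16.6 in those of Tconv. Eos- Tregs and Tconv overlapped, and all Eos+ Treg libraries were lower, by -1.08 ± 0.15 (adjusted p = 0.000377) and -1.13 ± 0.15 (adjusted p = 7.76e-05).

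The remaining effectors of this group are given by their changes. Ifit2 and Rsad2, which encodes the antiviral enzyme viperin, were lower in Eos+ Tregs than in Eos- Tregs (log2 -0.77 and -0.89) and Tconv (-0.51 and -0.70). Ifit3, Oasl1 and Oasl2 were lower in Eos+ than in Eos- Tregs by -0.76, -0.94 and -0.81. The calls of Ifit3, Oasl1 and Oasl2 were each lost without Eos+ Treg library 1, 2 or 3, Eos- Treg library 2, 3 or 4 or Tconv library 3, and that of Oasl1 also without Tconv library 1 (adjusted p up to 0.122). That of Rsad2 was lost without Eos+ Treg library 2 or Eos- Treg library 3 or 4 (adjusted p up to 0.0629), and that of Ifit2 without the libraries numbered 2 or 3. Against Tconv, the call of Ifit2 was lost without Eos+ Treg library 1 or 2 or Tconv library 2, 3 or 4 (adjusted p up to 0.116), and that of Rsad2 without Eos+ Treg library 1, 2 or 3 or Tconv library 3 or 4 (adjusted p up to 0.104). Ifit3 was higher in Eos- Tregs than in Tconv (log2 0.85, adjusted p = 0.0279), a call lost without Tconv library 1, 2 or 3 or Eos- Treg library 2, 3 or 4 (adjusted p up to 0.0864). The mean of Mx1 was 18.1 CPM in Eos- Tregs, 14 in the Eos+ libraries and 9.57 in Tconv, and Eos- Tregs did not overlap Tconv but missed the threshold (log2 0.92, adjusted p = 0.0526; 0.94 and 0.0172 with the block). With the block, Oasl1 and Oasl2 were also lower in Eos+ Tregs than in Tconv (adjusted p = 0.0167 and 0.00172).

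Guanylate-binding proteins (Gbp) and immunity-related GTPases attack the vacuoles of intracellular microbes and are strongly induced by interferon gamma. Of the 7 followed here, 3 were lower in Eos+ than in Eos- Tregs (Gbp4, Igtp and Irgm1) and Gbp3 was higher. The shares over all genes tested were 6.45% lower and 9.82% higher. In Eos- Tregs, 4 were higher than in Tconv (Gbp3, Gbp7, Igtp and Irgm1) and Gbp4 was lower, where 8.76% of all genes were called higher and 5.89% lower. Gbp3 (chromosome 3, 142560026 to 142573209, plus strand, mm10) measured 75.8, 62.7, 101 and 95.7 CPM in the Eos+ libraries, 50, 26.4, 43.7 and 58.5 in the Eos- libraries and 13.3, 12.6, 12.4 and 18.5 in those of Tconv. Its order was the reverse of Oas2, with Eos+ Tregs on top and no overlap between any of the groups. Eos+ Tregs were 1.88-fold above Eos- Tregs (log2 0.91 ± 0.23, adjusted p = 0.0166, lost without Eos+ Treg library 3) and 5.90-fold above Tconv (log2 2.56 ± 0.24, adjusted p = 5.88e-06). Eos- Tregs were above Tconv by 1.65 ± 0.24 (adjusted p = 0.000499).

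Gbp7 and Gbp2 flank Gbp3 on chromosome 3 and had other patterns. Gbp7 (142530342 to 142550149) measured 268, 219, 272 and 246 CPM in the Eos+ libraries, 296, 256, 325 and 338 in the Eos- libraries and 178, 180, 182 and 221 in those of Tconv. Both Treg populations were higher than Tconv, Eos- Tregs by 0.68 ± 0.11 without overlap (adjusted p = 0.000996) and Eos+ Tregs by 0.40 ± 0.11 (adjusted p = 0.0119), where only Tconv library 4 reached into their range. The Eos+ call was lost without the libraries numbered 1 or 3. Gbp2 (142620602 to 142638008) was lower in Eos+ Tregs (88 ± 11 CPM, SD, n = 4) than in Tconv (128 ± 17.6 CPM), by -0.54 ± 0.14 (adjusted p = 0.0128, lost without the libraries numbered 3). Gbp4, on chromosome 5 (105115767 to 105139586, minus strand), measured 333, 305, 288 and 268 CPM in the Eos+ libraries, 455, 451, 481 and 410 in the Eos- libraries and 525, 577, 542 and 514 in those of Tconv. It had the order of Oas2 with smaller steps and no overlap, -0.59 ± 0.08 for Eos+ against Eos- Tregs (adjusted p = 0.000389), -0.85 ± 0.08 for Eos+ Tregs against Tconv (adjusted p = 5.94e-06) and -0.26 ± 0.08 for Eos- Tregs against Tconv (adjusted p = 0.0442). The last of these was lost when any 1 of 9 libraries was left out (all but Eos+ Treg libraries 1 and 4 and Eos- Treg library 3, adjusted p up to 0.119). Non-whole counts in all 12 libraries for Gbp3 and Gbp7, in 10 for Gbp4 and in 6 for Gbp2, and exons that Gbp4 shares with Gbp8 and Gbp9, leave the split between family members uncertain.

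Among the immunity-related GTPases, Igtp measured 386, 335, 414 and 336 CPM in the Eos+ libraries, 516, 511, 566 and 563 in the Eos- libraries and 326, 292, 349 and 395 in those of Tconv. Eos- Tregs were above the other 8 libraries, by a log2 of -0.55 ± 0.10 for Eos+ against Eos- Tregs (adjusted p = 0.00247) and 0.66 ± 0.10 for Eos- Tregs against Tconv (adjusted p = 0.000791). Its exons overlap those of its relative Irgm2, and it held non-whole counts in all 12 libraries. Irgm1, a regulator of the other members, was also highest in Eos- Tregs, at 188 ± 17.8, 272 ± 16.8 and 210 ± 26.9 CPM (SD, n = 4) in the Eos+, Eos- and Tconv libraries. It was lower in Eos+ than in Eos- Tregs by -0.53 ± 0.10 (adjusted p = 0.00291) and higher in Eos- Tregs than in Tconv by 0.37 ± 0.10 (adjusted p = 0.0253), the latter lost without Tconv library 1 or 2 or Eos- Treg library 3 or 4 (adjusted p up to 0.0706). Iigp1 measured 56.1, 29.4, 51.7 and 81.2 CPM in the Eos+ libraries, 112, 61.9, 108 and 146 in the Eos- libraries and 69.9, 38.6, 59.2 and 129 in those of Tconv. Within each group it was lowest in library 2 and highest in library 4, the ranges overlapped, its counts were non-whole in 9 libraries, and no comparison passed (adjusted p 0.101 to 0.42). With the block Iigp1 passed in all 3, with log2 values of -0.99 (adjusted p = 0.000115), -0.40 (0.0109) and 0.59 (0.00226), Gbp7 was lower in Eos+ than in Eos- Tregs (adjusted p = 0.0367) and Gbp2 lower in Eos- Tregs than in Tconv (adjusted p = 0.0257).

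Of the 9 other effectors, 3 were lower in Eos+ than in Eos- Tregs (Rtp4, Xaf1 and Ifi35) and 3 were higher in Eos- Tregs than in Tconv (Ifi27l2a, Ifi35 and Xaf1). The shares over all genes tested were 6.45% and 8.76%. Rtp4 is a chaperone of receptors and an interferon-induced antiviral factor. It measured 104, 106, 119 and 110 CPM in the Eos+ libraries, 187, 198, 198 and 197 in the Eos- libraries and 175, 151, 193 and 199 in those of Tconv. The Eos+ Treg libraries were the 4 lowest. Both Treg groups were narrow (SD 6.9 CPM in the Eos+ and 5.37 in the Eos- libraries), and Tconv was wider (21.6). The log2 was -0.83 ± 0.09 against Eos- Tregs (adjusted p = 5.91e-05) and -0.71 ± 0.09 against Tconv (adjusted p = 5.08e-05). The adjusted p between the Treg populations was the smallest of the 36 genes. Xaf1 promotes cell death by binding an inhibitor of caspases. It stood at 88.7, 81.2, 84.2 and 98.5 CPM in the Eos+ libraries, 128, 127, 144 and 161 in the Eos- libraries and 101, 88.2, 114 and 117 in those of Tconv. Eos- Tregs were highest without overlap, with -0.67 ± 0.11 for Eos+ against Eos- Tregs (adjusted p = 0.00125) and 0.42 ± 0.11 for Eos- Tregs against Tconv (adjusted p = 0.0217, lost without Tconv library 1 or 2 or Eos- Treg library 3 or 4, adjusted p up to 0.072).

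Ifi35 measured 159, 160, 169 and 157 CPM in the Eos+ libraries, 218, 193, 210 and 229 in the Eos- libraries and 140, 120, 143 and 154 in those of Tconv. Its 3 groups did not overlap. It was lower in Eos+ than in Eos- Tregs by -0.40 ± 0.08 (adjusted p = 0.00505) and higher in Eos- Tregs than in Tconv by 0.61 ± 0.08 (adjusted p = 0.000317). Ifi27l2a, the most abundant of the 36 per kb of exon, measured 424, 536, 547 and 736 CPM in the Eos+ libraries, 413, 483, 576 and 802 in the Eos- libraries and 207, 204, 299 and 400 in those of Tconv. Here the Treg populations overlapped and both lay above Tconv, by 1.01 ± 0.25 for Eos+ Tregs (adjusted p = 0.0082) and 1.03 ± 0.25 for Eos- Tregs (adjusted p = 0.0151). The difference between the Treg populations was -0.02 ± 0.25 (adjusted p = 0.974). The Eos- call was lost without Tconv library 1 or 2 or Eos- Treg library 4 (adjusted p 0.0501 to 0.0529), and the Eos+ call without the libraries numbered 2 or 3. Per kb of exon, levels of the 36 genes ran from 2.04 (Ifi44) to 1211 CPM per kb (Ifi27l2a) in Eos+ Tregs.

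The rest of these effectors passed no threshold. Bst2, which tethers budding virus to the cell surface, measured 70, 70.8, 74 and 92.8 CPM in the Eos+ libraries, 87, 80.9, 85 and 114 in the Eos- libraries and 64.6, 60.4, 82.8 and 98.5 in those of Tconv. Isg20, an RNA exonuclease, measured 57.1, 62.1, 67 and 75.3 CPM in the Eos+ libraries, 78.5, 80.7, 91.6 and 103 in the Eos- libraries and 55.7, 54.1, 69.6 and 104 in those of Tconv. Parp14, which transfers ADP-ribose to proteins, measured 74.6, 82.9, 115 and 103 CPM in the Eos+ libraries, 74.7, 122, 164 and 128 in the Eos- libraries and 80.1, 80.9, 101 and 90.7 in those of Tconv. Bst2 and Parp14 overlapped in every comparison, and Isg20 was below all Eos- Treg libraries in Eos+ Tregs without passing (log2 -0.44, adjusted p = 0.138). Trim30a measured 132, 128, 132 and 138 CPM in the Eos+ libraries, 120, 143, 174 and 191 in the Eos- libraries and 129, 122, 153 and 172 in those of Tconv. It was steady in Eos+ Tregs, at 128 to 138 CPM, while its values in Eos- Tregs ran from 120 to 191 CPM, and no comparison passed (adjusted p 0.272 to 0.625). Trim30a held non-whole counts in all 12 libraries and is uncertain. With the block, Isg20 (adjusted p = 0.0135), Parp14 (0.0453) and Ifi44 (0.00141) were lower in Eos+ than in Eos- Tregs. Bst2 (0.04), Isg20 (0.0355) and Parp14 (0.0232) were higher in Eos- Tregs than in Tconv. In Eos+ Tregs against Tconv, Ifi44 (0.000253) and Xaf1 (0.0176) were lower and Ifi35 (0.0302) was higher.

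**Figure D3:**
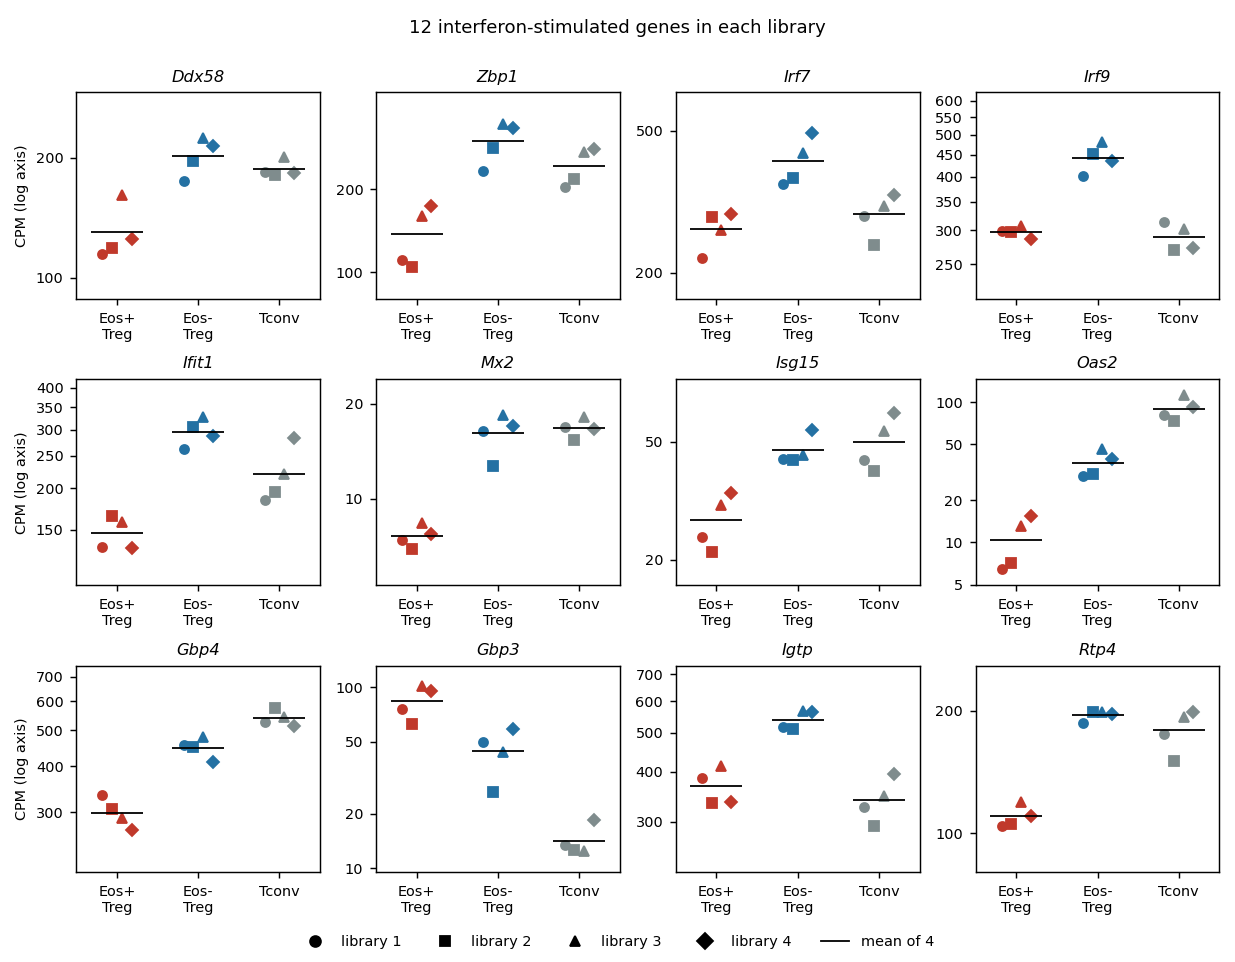
CPM (log axis) of 12 interferon-stimulated genes in the 12 libraries, with the mean of each group (line) and the library number as the symbol. Oas2 falls in steps from Tconv to Eos+ Tregs, Gbp3 runs the other way, and Irf9 and Igtp are highest in the 4 Eos- Treg libraries.

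Libraries also differed by number within each population. The mean log2(CPM + 1) over the 36 genes was 6.15, 6.12, 6.39 and 6.49 in Eos+ Tregs, 6.63, 6.69, 6.94 and 7.08 in the Eos- libraries and 6.37, 6.24, 6.58 and 6.82 in Tconv. Libraries 3 and 4 were above libraries 1 and 2 in every population, and at each number Eos- Tregs were above the other populations. Library 4 held the highest value of its population for 22 of the 36 genes in Eos+ Tregs, 22 in the Eos- libraries and 27 in Tconv. The same count over all genes tested was not made, so it is not known whether this is particular to the 36. Ifi44, an effector that was low elsewhere, measured 7.59, 7.35, 9.21 and 26 CPM in the Eos+ libraries, 15, 13.8, 15.9 and 36.9 in the Eos- libraries and 15.6, 12.6, 17.8 and 48.9 in those of Tconv. In it, as in Oas1a, each library numbered 4 stood far above the other 3 of its group, and with all 12 libraries no comparison of Ifi44 passed without the block (adjusted p 0.215 to 0.842). Without the libraries numbered 4, Ifi44 was lower in Eos+ Tregs than in Eos- Tregs (log2 -0.89, adjusted p = 0.0159) and Tconv (-0.91, adjusted p = 0.00681), and it was also lower than in Tconv without Eos+ Treg library 4 alone (-1.56, adjusted p = 0.0331). Oas1a without the libraries numbered 4 was higher in Eos+ Tregs than in Eos- Tregs (0.64, adjusted p = 0.00883) and Tconv (1.07, adjusted p = 0.000221), and higher than in Tconv without Tconv library 4 alone (1.43, adjusted p = 0.0172). What the numbers stand for is not given in the labels beyond a shared name per number.

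**Figure D4:**
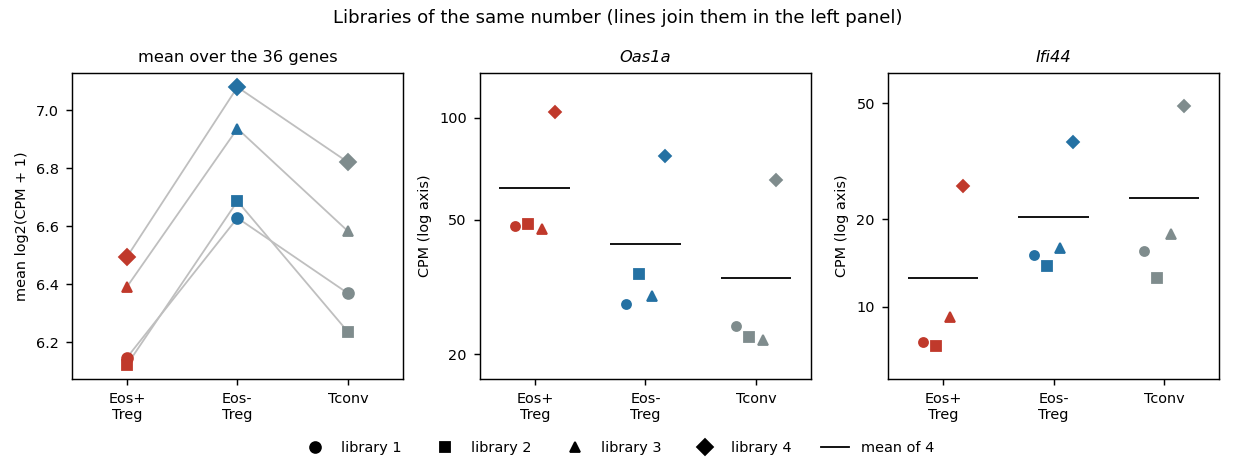
Left, mean log2(CPM + 1) of the 36 genes in each library, with grey lines joining libraries of the same number. Middle and right, CPM (log axis) of Oas1a and Ifi44 with group means (lines), where library 4 (diamond) is highest in each population.

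Upstream of these genes, Ifngr1 and Ifnar2 were highest in Eos+ Tregs and Ifngr2 was lowest there. A list of receptors with their kinases and STATs had 11 tested genes. Of these, 5 were higher and 2 lower in Eos+ than in Eos- Tregs (9.82% and 6.45% of all genes). In Eos+ Tregs against Tconv, 8 were higher and 1 lower (17.3% and 13% of all genes). In Eos- Tregs against Tconv, 7 were higher and 0 lower (8.76% and 5.89% of all genes). Ifngr1, the ligand-binding chain for interferon gamma, measured 875, 792, 809 and 705 CPM in the Eos+ libraries, 615, 473, 531 and 565 in the Eos- libraries and 181, 178, 189 and 201 in those of Tconv. All 3 groups were apart, with Eos+ Tregs highest, by 0.54 against Eos- Tregs (adjusted p = 0.00158) and 2.09 against Tconv (adjusted p = 1.79e-08). Ifngr2, the signalling chain, went the other way and measured 60.2, 80.3, 84.7 and 84.4 CPM in the Eos+ libraries, 104, 132, 136 and 127 in the Eos- libraries and 126, 105, 113 and 120 in those of Tconv. It was lower in Eos+ Tregs than in Eos- Tregs (log2 -0.69, adjusted p = 0.00178) and Tconv (-0.58, adjusted p = 0.00236). Ifnar2 was 139 ± 9.88, 112 ± 4.12 and 74.3 ± 6.07 CPM in Eos+ Tregs, Eos- Tregs and Tconv (SD, n = 4), and higher in Eos+ than in Eos- Tregs by 0.32 (adjusted p = 0.0138), a call that ended without the libraries numbered 1 or 2 (adjusted p up to 0.0899). Ifnar1 was higher in both Treg populations than in Tconv (log2 0.49 and 0.62, adjusted p = 0.0108 and 0.00603) and did not pass between them (-0.13, adjusted p = 0.566). Leaving out the libraries numbered 2 or 3 ended both Ifnar1 calls (adjusted p up to 0.105 and 0.0667). Il10rb, a chain shared with the type III interferon receptor, was 154 ± 5.05, 94.6 ± 6.2 and 36 ± 5.56 CPM, and Stat4, which type I interferon can activate in T cells, 195 ± 18.5, 128 ± 4.48 and 68.3 ± 12.3 CPM. Both were higher in Eos+ than in Eos- Tregs (log2 0.70 and 0.61, adjusted p = 0.000613 and 0.00285).

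Irf1, an early target of interferon gamma, measured 282, 236, 308 and 330 CPM in the Eos+ libraries, 345, 379, 500 and 528 in the Eos- libraries and 262, 222, 357 and 384 in those of Tconv. It was lower in Eos+ than in Eos- Tregs (log2 -0.60, adjusted p = 0.0428), a call lost without Eos+ Treg library 1, 2 or 3 or Eos- Treg library 2, 3 or 4 (adjusted p up to 0.124). Irf5, better known from myeloid and B cells, measured 89, 102, 93.6 and 60.3 CPM in the Eos+ libraries, 19.8, 11.3, 13.8 and 13.3 in the Eos- libraries and 6.38, 1.7, 7.64 and 2.6 in those of Tconv. It was 86.2 ± 18 CPM in Eos+ Tregs, with a log2 of 2.57 against Eos- Tregs (adjusted p = 0.000767) and 4.23 against Tconv (adjusted p = 8.85e-06). Of 10 interferon regulatory factors outside the 36, 3 were higher (Irf4, Irf5 and Irf8) and 1 lower (Irf1) in Eos+ than in Eos- Tregs. Of all genes tested, 9.82% were called higher and 6.45% lower there. The Irf4 call (log2 0.91, adjusted p = 0.00963) ended when the libraries numbered 3 were left out (0.115). The Irf8 call (log2 0.45, adjusted p = 0.0367) was lost without Eos+ Treg library 1, 3 or 4 or Eos- Treg library 1, 2 or 3 (adjusted p up to 0.113). B cell markers had a summed level of 1400 to 1830 CPM in Eos+ Tregs, most of it Ighm, against 177 to 473 in Eos- Tregs. In Eos- Tregs against Tconv, Irf5 and Irf8 were higher (log2 1.67 and 1.45, adjusted p = 0.0117 and 2e-05). There, 0 of 10 tested B cell markers were called, where 8.76% of all genes were called higher and 5.89% lower. The part of B cell transcripts was not tested.

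Interferon transcripts themselves were scarce. Of 21 ligand genes in the table, 1 passed the filter. That was Ifng, at 2.7 ± 1.12 CPM in Eos+ Tregs, 1.91 ± 1.17 in the Eos- libraries and 6.25 ± 4.07 in Tconv (SD, n = 4), and it passed in no comparison (adjusted p 0.0625 to 0.611; 0.0216 with the block for Eos- Tregs against Tconv). Ifnb1 had 0 counts in all 12 libraries. Among 15 brakes on signalling, 4 were higher and 0 lower in Eos+ than in Eos- Tregs (9.82% and 6.45% of all genes). The 4 were Trex1 (log2 0.82, adjusted p = 0.00312), Nlrx1 (0.80, adjusted p = 0.0146), Pias3 (0.79, adjusted p = 0.00113) and Cish (0.51, adjusted p = 0.0412). Leaving out the libraries numbered 2, 3 or 4 ended the Nlrx1 call (adjusted p up to 0.111). The Cish call was lost without Eos+ Treg library 1, 3 or 4, Eos- Treg library 1, 2 or 4 or Tconv library 3 or 4 (adjusted p up to 0.122). Cish was higher in Eos+ (log2 3.35) and Eos- Tregs (2.84) than in Tconv. Of 16 tested sensors and adaptors that induce interferon, 2 were higher and 2 lower in Eos+ than in Eos- Tregs (9.82% and 6.45% of all genes). Aim2 (log2 0.86, adjusted p = 0.0027) and Tmem173, which encodes STING (0.65, adjusted p = 0.000144), were higher. Trim25 and Ikbke were lower (-0.90 and -0.29, adjusted p = 0.0258 and 0.0498). The Trim25 call was lost without Eos+ Treg library 1 or 2 or Eos- Treg library 2, 3 or 4 (adjusted p up to 0.0755), and that of Ikbke when any 1 library but Eos- Treg library 4 and Tconv library 4 was left out (adjusted p up to 0.12).

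**Figure D5:**
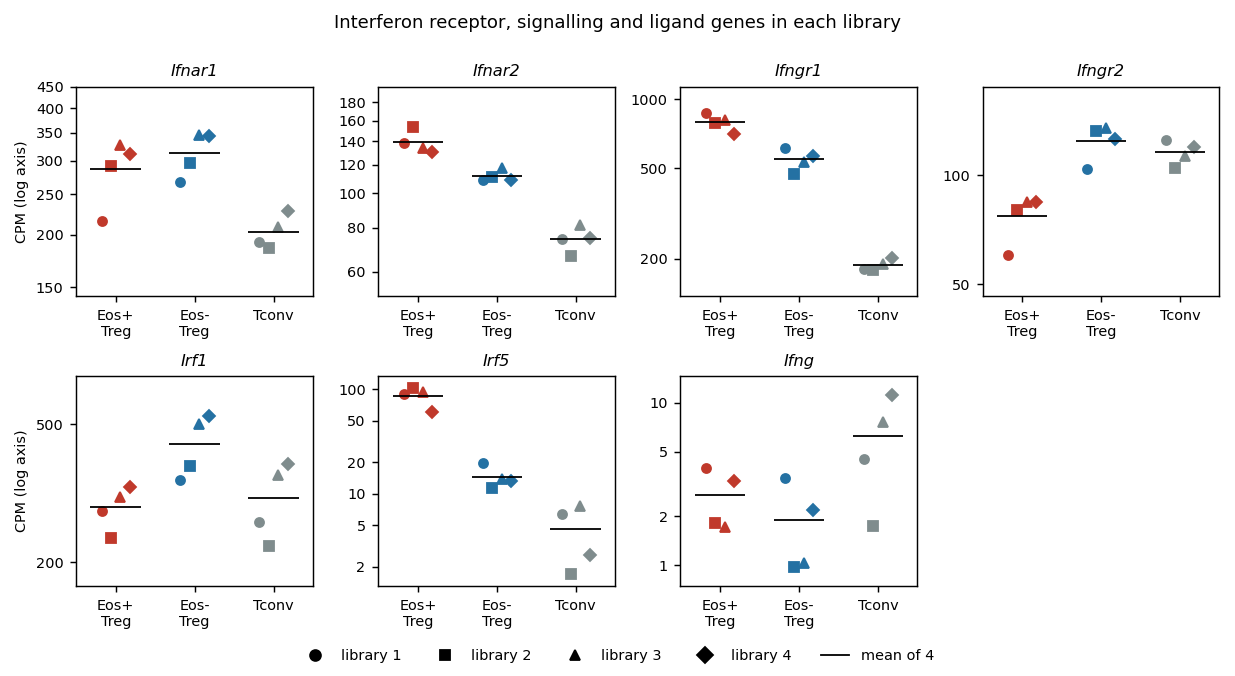
CPM (log axis) of 7 receptor, signalling and ligand genes in the 12 libraries, with group means (lines) and the library number as the symbol. Ifngr1 and Irf5 are highest in Eos+ Tregs, and Ifngr2 is lowest there.

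Other interferon-inducible families outside the 36 were split. Of 14 tested GTPases, 2 were higher and 4 lower in Eos+ than in Eos- Tregs (9.82% and 6.45% of all genes). The higher pair was Gvin1 (245 ± 18.6 against 89.1 ± 25.9 CPM, log2 1.46, adjusted p = 0.0042) and Gbp2b (17.3 ± 11.8 against 1.78 ± 1.21 CPM, log2 3.28, adjusted p = 0.037, lost without Eos+ Treg library 1, 2 or 3 or Eos- Treg library 3 or 4, adjusted p up to 0.131). The Gbp2b call was also lost with DESeq2, and limma-voom gave a log2 of 5.32. The lower ones included Gbp10 (181 ± 36.3 against 396 ± 79 CPM, log2 -1.13, adjusted p = 0.00429) and Gbp9 (208 ± 21.7 against 343 ± 50.2 CPM, log2 -0.72, adjusted p = 0.000874), and the Gbp10 call ended when the libraries numbered 3 were left out (0.0512). Of 48 other antiviral and ubiquitin-like genes, 8 were higher and 13 lower in Eos+ than in Eos- Tregs (9.82% and 6.45% of all genes). In Eos+ Tregs against Tconv, 11 were higher and 5 lower (17.3% and 13% of all genes). In Eos- Tregs against Tconv, 16 were higher and 2 lower (8.76% and 5.89% of all genes). Ifitm2, which blocks viral entry, was 15.7 ± 2.19 CPM in Eos+ Tregs, 4.58 ± 0.755 in the Eos- libraries and 1.78 ± 0.595 in Tconv, and Ube2l6, the conjugating enzyme for Isg15, was 73.1 ± 14.7, 33.1 ± 9.64 and 7.82 ± 3.37 CPM. Both were higher in Eos+ than in Eos- Tregs (log2 1.78 and 1.14, adjusted p = 0.000626 and 0.0152), and leaving out the libraries numbered 1 or 3 ended the Ube2l6 call (adjusted p up to 0.102). Cxcl10, a chemokine, was higher as well, at 10.9 ± 1.46 against 2.89 ± 0.673 CPM (log2 1.91, adjusted p = 0.0066), as was the surface protein gene Ly6a, at 125 ± 27.7 against 47.3 ± 17.4 CPM (1.40, adjusted p = 0.00709). Leaving out the libraries numbered 2 or 3 ended the Cxcl10 call (adjusted p up to 0.0591), and leaving out those numbered 3 ended that of Ly6a (adjusted p = 0.0821). Parp11 was lower there, at 50.3 ± 6.31 against 114 ± 15 CPM (log2 -1.18, adjusted p = 2.12e-05).

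The p200, Schlafen, Trim and Phf11 families had 32 tested genes. Of these, 1 was higher and 12 were lower in Eos+ than in Eos- Tregs (9.82% and 6.45% of all genes). In Eos+ Tregs against Tconv, 6 were higher and 9 lower (17.3% and 13% of all genes). In Eos- Tregs against Tconv, 9 were higher and 0 lower (8.76% and 5.89% of all genes). Slfn1, a Schlafen gene of T cells, was 160 ± 5.86 CPM in Eos+ Tregs, 317 ± 16.1 in the Eos- libraries and 264 ± 36.4 in Tconv (log2 -0.98 between the Treg populations, adjusted p = 2.25e-05). Trim12c (log2 -1.30, adjusted p = 0.00178) and the p200 gene Ifi213 (-1.02, adjusted p = 0.00126) were lower in Eos+ than in Eos- Tregs too. Trim14, an adaptor in antiviral signalling, was higher in both Treg populations than in Tconv (log2 1.55 and 1.51, adjusted p = 5.98e-06 and 2.58e-05).

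Some markers of maturation and of other cells differed between the same groups, and their part in the results on interferon-stimulated genes was not tested. Of 16 late markers of single-positive thymocytes, 9 were lower and 2 higher in Eos+ than in Eos- Tregs (6.45% and 9.82% of all genes). In Eos- Tregs against Tconv, 10 were higher and 4 lower (8.76% and 5.89% of all genes). In Eos+ Tregs against Tconv, 7 late markers were higher and 4 lower (17.3% and 13% of all genes), with a median log2 of 0.21. Ly6c1 was 5.28 ± 2.83 CPM in Eos+ Tregs, 30.9 ± 12.1 in the Eos- libraries and 14 ± 3.75 in Tconv (log2 -2.55 between the Treg populations, adjusted p = 0.000995). Ly6c2, another late marker, was lower than in Tconv in Eos+ Tregs (log2 -3.35, adjusted p = 0.00267) and in Eos- Tregs (-2.79, adjusted p = 0.015). It did not pass between the Treg populations (-0.56, adjusted p = 0.626). Its Eos- call ended without the libraries numbered 2, 3 or 4. Satb1, an organiser of chromatin in thymocytes, was 414 ± 90 CPM in Eos+ Tregs, 1467 ± 208 in the Eos- libraries and 3122 ± 439 in Tconv (log2 -1.82 between the Treg populations, adjusted p = 1.88e-05). Of 11 early markers, 2 were lower and 1 higher in Eos+ than in Eos- Tregs. Against Tconv, 0 early markers were higher and 3 lower in Eos+ Tregs, and 0 were higher and 4 lower in Eos- Tregs. Il7r, a late marker that encodes the receptor chain for interleukin 7, was higher in Eos+ than in Eos- Tregs (log2 1.42, adjusted p = 0.0218). That call was lost without Eos+ Treg library 1 or Eos- Treg library 2, 3 or 4 (adjusted p up to 0.068).

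B cell markers were called higher in Eos+ than in Eos- Tregs for 4 of 10 tested genes and lower for 0. In this comparison 9.82% of all genes were called higher and 6.45% lower. The summed level of the 11 genes was 1400 to 1830 CPM in Eos+ Tregs, 177 to 473 in the Eos- libraries and 228 to 403 in Tconv, most of it Ighm (1330 to 1660 CPM in Eos+ Tregs). For dendritic cells and macrophages 3 of 16 tested markers were higher in Eos+ than in Eos- Tregs and 0 lower, with Itgax at 0 in Eos+ Treg library 2 and Eos- Treg libraries 2 and 3. Their sum ran from 512 to 1270 CPM in Eos+ Tregs, 95.2 to 643 in the Eos- libraries and 205 to 693 in Tconv. Among plasmacytoid dendritic cell markers, 1 of 12 was higher and 1 lower, and sums without Bst2 were 236 to 342, 253 to 460 and 438 to 699 CPM, with Siglech at 0 to 13.6 CPM over the 12 libraries. Of 5 tested epithelial and stromal markers 2 were higher and 1 lower, and sums were 136 to 191, 233 to 338 and 197 to 224 CPM. Foxn1, Krt5 and Pdgfra were at 0 in every Eos- Treg and Tconv library. Aire, among the higher ones, had low means of 1.58, 0.0245 and 0.221 CPM in the Eos+, Eos- and Tconv libraries (log2 5.80 between the Treg populations, adjusted p = 0.0299). Double-positive, CD8 and NK cell sums were 192 to 414, 174 to 470 and 300 to 473 CPM, with 0 of 12 markers called between the Treg populations. Sums for erythroid cells and granulocytes were 0.172 to 537, 0.0691 to 476 and 0.461 to 390 CPM (medians 23.2, 9.51 and 4.49), with 0 of 6 tested markers called. Alas2, an erythroid gene of this list that did not pass the filter, was 4.452, 4.445 and 4.609 CPM in the Eos+, Eos- and Tconv libraries numbered 1. It was at most 0.233 CPM in the other libraries.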

How the data were processed

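RNA of 12 libraries was measured in the form of expected counts per gene, deposited by the authors in the form RSEM writes, neither depth- nor length-scaled. The submitters' processing notes name cutadapt 1.18, STAR 2.7.0f, RSEM 1.3.1 and mm10, and the annotation release and settings are not given in the sources used here. The labels' protocols name a low-input template-switching kit and tagmentation, which do not mark strand.

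Expected counts were rounded and tested with edgeR 4.0.16 (R 4.3.3): quasi-likelihood F test, TMM, filterByExpr, 1 mean per group over 12 libraries, two-sided p-values adjusted by Benjamini-Hochberg. Levels are CPM on TMM-scaled totals, and a standard error is the log2 fold change over the root of F. The test was run on simulated data first. Positions come from GENCODE M21, which held 55450 of the 55450 gene IDs. Genes with values in every library were those called at 10 CPM or more with the 4 largest changes per role, all sensors and signalling genes, and uncalled genes at 50 CPM or more (Ifi44 was added after its values were seen). The rule for the 36 genes uses no measured value, but these genes and the other lists were chosen for study with earlier results of these data known. Alternatives were other factors, no filter, DESeq2 1.42.0, limma 3.58.1 voom, only the groups compared, a replicate block and libraries left out. Genes outside the 36 were put through the same alternatives as a choice made after seeing the data.

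Library numbers pair the samples: titles and library names share them, though no label calls them animals, and deviations from group means correlated at 0.138 to 0.318 for equal numbers and at most 0.0695 otherwise. Replicate counts differed beyond sampling noise in every pair (chi-square per degree of freedom 24.3 to 75). Some genes of the lists are not reported here.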

Additional observations from a re-analysis of the deposited data

Results flagged for a closer look

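In 8 of 108 groups of 4 libraries, a group being 1 of the 36 genes in 1 population, the highest or the lowest library lay apart from the other 3 by more than Dixon's critical value of 0.829 of the range of log2(CPM + 1). Chance alone marks about 1 in 20 such groups. In 5 of the 8 the library was numbered 4 and was the highest. Oas1a stood at 104 CPM in Eos+ Treg library 4, with the next at 48.5 CPM, and at 65.5 CPM in Tconv library 4, with the next at 24.3 CPM. Ifi44 was 36.9 CPM in Eos- Treg library 4 and at most 15.9 CPM in the others. Isg15 was 54.7 CPM in Eos- Treg library 4 against 45 CPM in the next, and Gbp7 was 221 CPM in Tconv library 4 against 182 CPM.

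In the other 3 groups the library was numbered 3 or 1. Ddx58 was 202 CPM in Tconv library 3 with the next at 184 CPM, Stat2 was 162 CPM in Tconv library 3 with the next at 127 CPM, and Rtp4 was lowest in Eos- Treg library 1, at 187 CPM, where the others lay at 197 to 198 CPM.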

How the results depend on the processing

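No called value changed sign in any alternative. Under other factors, no filter, DESeq2, limma-voom and the fit of only the groups compared, the counts of called genes stayed within 1.5 times, except that without the filter 1 gene was lower in Eos- Tregs than in Tconv in place of 2. With the replicate block, 2 genes were higher in Eos+ than in Eos- Tregs, 7 higher in Eos+ Tregs than in Tconv and 4 lower in Eos- Tregs than in Tconv; among the 36 genes it changed no call but those named beside the genes. Leaving out 1 library at a time gave 0 to 1 genes higher in Eos+ than in Eos- Tregs, 7 to 16 higher and 1 to 2 lower in Eos- Tregs than in Tconv. Without the libraries numbered 3, 0 genes were higher and 13 lower in Eos+ than in Eos- Tregs, and without those numbered 4, 2 were higher. Higher genes in Eos+ Tregs against Tconv numbered 2 without number 1 or 2 and 1 without number 3. In Eos- Tregs against Tconv, 6 were higher without number 2 and 7 without number 3, and 1 was lower when the libraries of any 1 number were left out. Without the filter the calls of Ifih1 (Eos+ against Eos- Tregs), Gbp4 and Ifit1 (Eos- Tregs against Tconv) were lost, and with only the groups compared those of Ifit1 and of Ifit2 (Eos+ Tregs against Tconv). Calls were gained between Eos+ and Eos- Tregs for Dhx58, Oas3 and Stat2 (DESeq2), Dhx58 (limma-voom) and Isg20 (only the groups compared), in Eos+ Tregs against Tconv for Ifi35 and Oas1a (limma-voom), and in Eos- Tregs against Tconv for Mx1 (TMMwsp, DESeq2 and limma-voom) and Parp14 (limma-voom). The cause of these shifts was not tested, though fewer libraries enter the fits that leave some out.

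Between Eos+ and Eos- Tregs, 13 of 21 calls held in every alternative (Ddx58, Gbp4, Ifi35, Ifit1, Igtp, Irf9, Irgm1, Isg15, Mx2, Oas2, Rtp4, Xaf1 and Zbp1), as did 10 of 16 in Eos+ Tregs against Tconv and 7 of 16 in Eos- Tregs against Tconv. Reads without molecular identifiers and 1 ng of input limit the precision of low genes such as Mx1, Mx2 and Ifi44. Genes of similar sequence share reads, so the split within the Gbp, Ifit and immunity-related GTPase families is uncertain. Outside these families, counts were non-whole in 10 libraries for Ifi35, 9 for Irf9 and 8 for Oas1a. Those of Mx1 and Mx2 were non-whole in 7 libraries each. These levels are uncertain too.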
